A study of Homo sapiens with 3 samples.

Results

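The genes described here are 31 transcriptional targets of the tumour suppressor p53, measured by RNA-seq in HGC-27 cells, an established human gastric cancer cell line. They were taken by symbol from a fixed list, which was chosen with earlier results of these data known. All 31 were found among the 58735 genes of the deposited table. CDKN1A is not among the 31 and is given separately. One library came from cells with a control short hairpin RNA (shControl, labelled as wild-type genotype, with a column named Scramble). The other 2 libraries came from cells with a hairpin against USP16, named shUSP16-1 and shUSP16-2. USP16 is a deubiquitinase known for removing ubiquitin from histone H2A. Cells grew in medium with serum. The protocol text shared by the 3 libraries also names dexamethasone, isobutylmethylxanthine and insulin, and it is not clear from it whether these cells received them. Whether the 2 hairpin numbers stand for different sequences, or for separate cultures, is not stated in the labels. A p-value here therefore reflects how much these libraries scatter, and that scatter could be technical. The study is of 1 cell line, and in bulk RNA fewer expressing cells and less RNA per cell cannot be told apart.

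p53 is a transcription factor that is kept scarce by MDM2, a ubiquitin ligase whose own gene p53 activates. DNA damage, oncogene activity or a fault in ribosome assembly frees p53 from MDM2, and p53 then activates genes for cell cycle arrest, apoptosis, DNA repair and antioxidant metabolism. It binds DNA as a tetramer at a pair of decamer half-sites, each with a C and a G around a central pair of bases, often near the start or in the first intron of its targets. Many of these genes also answer to other regulators: GADD45A, BTG2, PLK2 and PLK3 are also induced by growth factors or stress kinases, and ATF4, the main factor of the integrated stress response, also drives GDF15, PMAIP1 and TNFRSF10B.

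The reads recovered from the deposited values came to between 29530581 and 31187845 per library. USP16 mRNA was 6.28 FPKM (fragments per kilobase, scaled to sequencing depth) in shControl, 4.29 in shUSP16-1 and 5.98 in shUSP16-2, so the library labelled shUSP16-2 was close to the control for the targeted gene, at a ratio of 0.952 with an exact binomial 95% interval of 0.875 to 1.04. At the sums of reads that ratio was 0.876 (0.805 to 0.953), below the control. In shUSP16-1 the ratio was 0.683 (0.621 to 0.749), and the limma log2 difference over both was -0.26 (SE 0.20, adjusted p = 0.564). Every direction below rests on the labels. Of the markers of the labelled tissue, none of 5 epithelial genes and none of 6 gastric gland genes reached a mean of 1 FPKM; CDH1 and KRT18 had at most 2 reads in any library, and MUC5AC, TFF1 and TFF2 had 0. Of 4 mesenchymal genes VIM (155 to 180 FPKM) and ZEB1 reached 1 FPKM, while FN1 averaged less and CDH2 had at most 10 reads. All 4 fibroblast genes, COL1A1, COL1A2, DCN and LUM, were above 1 FPKM, with a summed level of 99.2 in shControl, 110 in shUSP16-1 and 140 in shUSP16-2. PTPRC, PECAM1 and CDH5, which mark blood and endothelial cells, had 0 reads. None of 5 adipocyte genes reached 1 FPKM, with ADIPOQ and LEP at 0 reads. The part of these markers in the results below was not tested.

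Taken by number at the authors' scaling, the p53 targets did not stand to one side of the control. Of the 31, 26 had a mean of at least 1 FPKM and entered the test. Both libraries labelled shUSP16 lay above shControl for 11 of the 26 (42.3%), where this held for 44.9% of the 13852 genes tested. They lay below it for 10 of the 26 (38.5%), against 32.4% of all genes. In the other 5 (FAS, PPM1D, TNFRSF10B, TRIAP1 and XPC) the control lay between the 2. Both ratios share the single control library. The median log2 difference of the 26, on the log2(FPKM + 1) scale, was -0.01, beside 0.04 over all genes tested. The balance of the counts moved with the scaling. Scaled to equal totals of reads, 6 members (23.1%) lay above shControl and 17 (65.4%) below, against 31.3% and 45.4% of all genes. With median-ratio scaling 8 members (30.8%) lay above and 14 (53.8%) below, against 37.9% and 38.5% of all genes.

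No member was called by limma, a linear model with variances moderated across all 13852 genes, at a Benjamini-Hochberg adjusted p under 0.05. It called 0.0% of all genes, and the adjusted p of the 26 members ran from 0.291 to 0.975. At an unadjusted p under 0.05 there were 5 members (AEN, BAX and EI24 higher, BTG2 and GADD45A lower), or 19.2%, beside 14.5% of all genes. Voom on recovered reads, with the totals implied by the authors' scaling, called 0 members, where it called 1.47% of all genes higher and 1.04% lower. Voom with sums of reads as totals called 3 members lower (BBC3, GADD45A and TP53INP1, adjusted p = 0.0396, 0.0231 and 0.0331) and 0 higher, against 3.02% of all genes lower and 1.0% higher.

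By size, none of the 26 tested members stood 1.5-fold away from the control in the 2 shUSP16 libraries together, a rule met by 1.96% of all genes upward and 4.26% downward. Of the members under the minimum level, TIGAR was past that size upward and PHLDA3 and TRIM22 downward, each on few reads. Among tested members, counted in shUSP16-2 alone there were 1 higher (AEN) and 2 lower (BBC3 and TP53INP1), and in shUSP16-1 alone 1 lower (GADD45A). The share of all genes past that size in a single library is not given here. Set against the counting error of their reads alone, 6 members had intervals above 1 in both libraries (AEN, BAX, EI24, MDM2, PLK3 and TP53I3), or 23.1%, where 28.0% of all genes did. For 7 members the intervals lay below 1 in both (BBC3, BTG2, DDB2, GADD45A, PLK2, TP53INP1 and ZMAT3), or 26.9%, where 15.1% of all genes did. These shares move with the scaling. At the sums of reads, the intervals of 5 members (19.2%) lay above 1 in both, against 17.0% of all genes, and those of 8 (30.8%) below, against 25.0%.

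**Figure D1:**
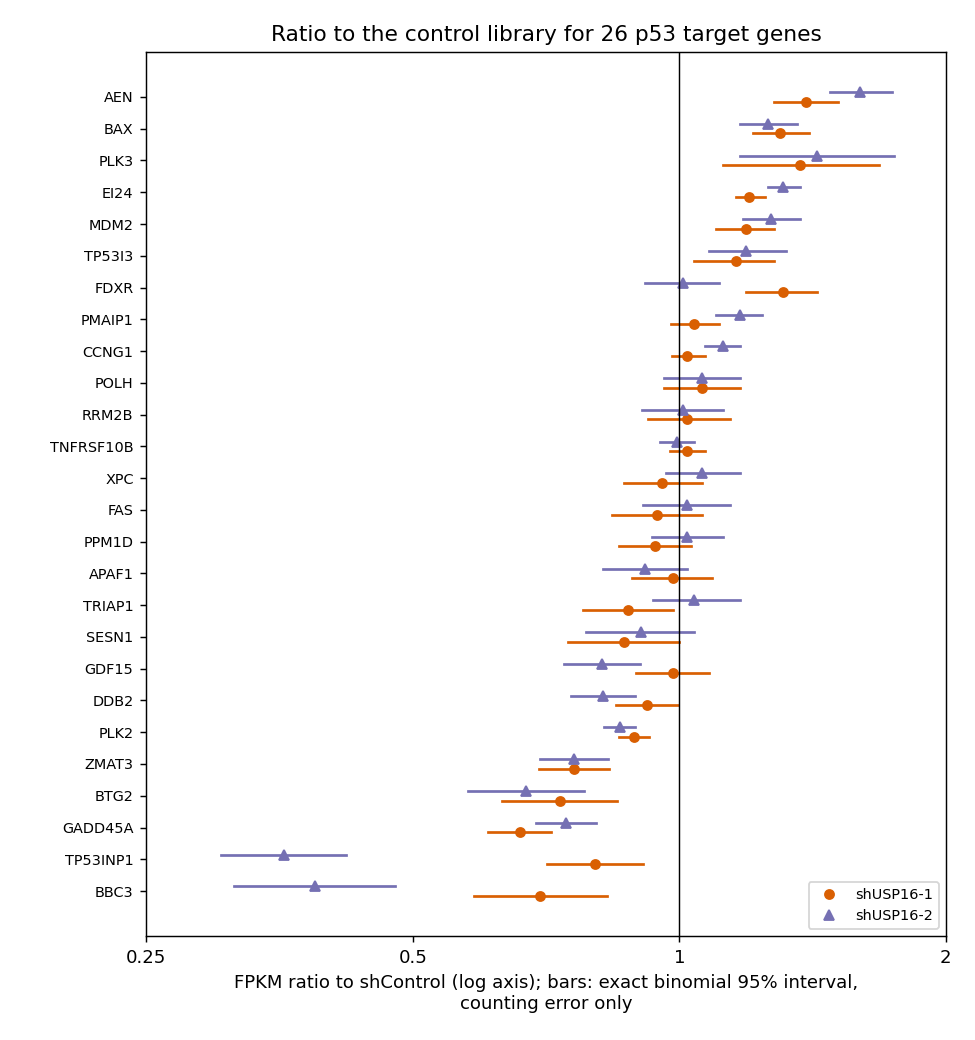
Ratio of FPKM to shControl (log axis) for the 26 members tested, ordered by their limma difference; circles are shUSP16-1, triangles shUSP16-2, and bars are exact binomial 95% intervals that cover counting error only. AEN is highest at 1.39 and 1.60. BBC3 (0.697 and 0.388) and TP53INP1 (0.803 and 0.358) are lowest by the limma difference and in shUSP16-2, and differ most between the 2 libraries. In shUSP16-1 GADD45A is lowest, at 0.661.

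The sequences near the starts of these genes give examples of p53-type elements. RefSeq promoter windows on GRCh38.p14, from 250 bases before to 50 after each listed start, were found for 24 of the 31 genes. They were searched for the p53 consensus element of 2 adjacent decamers with both C and G cores intact, with no spacer and at most 3 other mismatches, a limit set with the matches in view. The consensus reads the same on both strands. Such a match was present for 8 of the 24 genes (33.3%), and for 1.37% of the 27305 gene symbols with a window. With at most 2 mismatches it was present for 4 of the 24 (16.7%) and 0.359% of all. The members were listed as p53 targets beforehand, so their higher share is not a test. A gene without a match is not shown to lack an element, since other spacings and positions were not searched. A match is a description of these letters and not evidence of binding in HGC-27. The 8 are shown as examples of the element that p53 is known to bind; capitals mark the 2 core tetramers.

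DDB2: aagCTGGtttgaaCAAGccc
AEN: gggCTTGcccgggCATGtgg
FAS: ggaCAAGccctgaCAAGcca
MDM2: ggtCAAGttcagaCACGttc
FDXR: gggCAGGagcgggCTTGccc
GDF15: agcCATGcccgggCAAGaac
PMAIP1: gagCGTGtccgggCAGGtcg
SESN1: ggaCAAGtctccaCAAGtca

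In the order above they had 1 mismatch in DDB2, 2 each in AEN, FAS and MDM2, and 3 each in FDXR, GDF15, PMAIP1 and SESN1. The MDM2 element lies in an intron at chr12:68808923-68808942 (plus strand), with its first base at -94 from an internal RefSeq start, and the SESN1 element in an intron at chr6:109009018-109009037 (minus strand). The DDB2 (chr11:47214969-47214988, plus strand), AEN (chr15:88621306-88621325, plus strand), FAS (chr10:88991309-88991328, plus strand), FDXR (chr17:74872996-74873015, minus strand) and GDF15 (chr19:18386186-18386205, plus strand) elements fall within exons of GENCODE 29 transcripts. The PMAIP1 element lies upstream of the gene at chr18:59899811-59899830 (plus strand). The 8 genes with a match did not share a direction. Both libraries labelled shUSP16 were above shControl for AEN, MDM2, FDXR and PMAIP1, as for 44.9% of all genes. They were below it for DDB2, GDF15 and SESN1, as for 32.4% of all genes, and on either side of it for FAS. Among the 8, both counting intervals lay away from 1 only for AEN and MDM2 (above) and DDB2 (below). With equal totals FAS joined those below and FDXR and PMAIP1 were on either side, beside 31.3% of all genes above and 45.4% below.

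**Figure D2:**
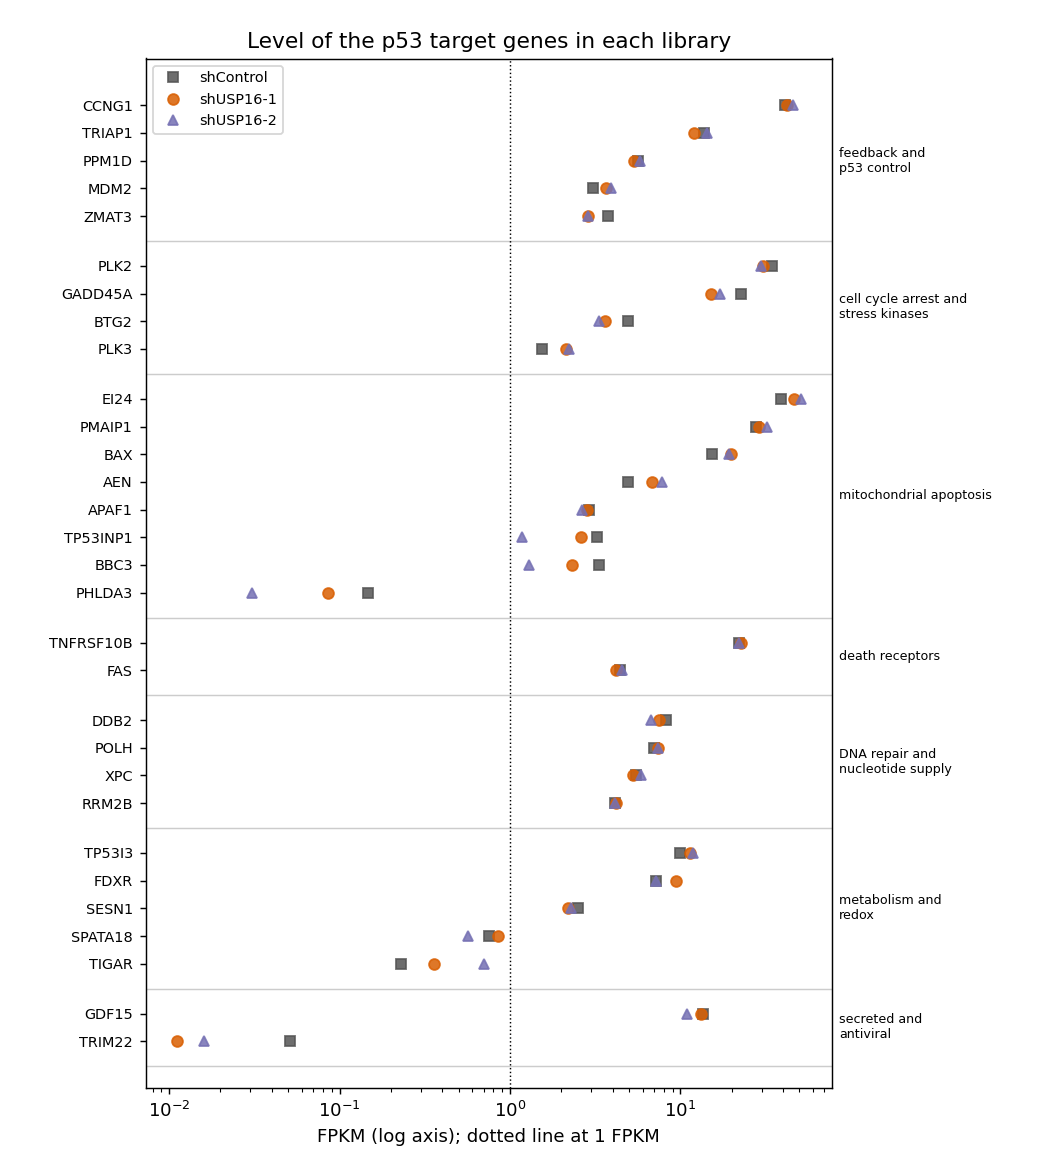
FPKM (log axis) of the 30 members with at least 1 read, in shControl (squares), shUSP16-1 (circles) and shUSP16-2 (triangles), grouped by role and ordered by mean level within each role. EI24 and CCNG1 stand highest, between 38.8 and 50.9 FPKM, and SPATA18, TIGAR, PHLDA3 and TRIM22 lie below the dotted line at 1 FPKM.

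Levels per kilobase ran from EI24 (38.8 FPKM in shControl) and CCNG1 (41.0), through PLK2 (34.5), PMAIP1 (27.7), GADD45A (22.8) and TNFRSF10B (22.2), down to genes with almost no signal. EI24 and CCNG1 changed places between shControl and the other libraries, so their order is not fixed. TNFRSF10C, a decoy receptor for the death ligand TRAIL, had 0 reads in all 3 libraries, which allows up to 0.0493 FPKM in shControl (3 reads, counting error only). TRIM22, an antiviral ubiquitin ligase, had 10, 2 and 3 reads (control first, then the hairpins against USP16 in order). PHLDA3, an inhibitor of AKT signalling, had 15, 8 and 3 reads. SPATA18, linked to mitochondrial quality control, had 121, 125 and 87 reads. None of these 4 reached the minimum level for the test.

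Among the genes that act back on p53, MDM2 was slightly higher and ZMAT3 lower in both libraries labelled shUSP16. MDM2 (ENSG00000135679, chromosome 12, 68808176 to 68850686, plus strand, GRCh38) stood at 3.08 FPKM in the control library, 3.67 in shUSP16-1 and 3.93 in shUSP16-2. Both values exceeded the control, with ratios of 1.19 (1.10 to 1.28) and 1.27 (1.18 to 1.37), and the limma log2 difference was 0.23 with an SE of 0.14 (adjusted p = 0.470). ZMAT3, an RNA-binding protein gene (ENSG00000172667, chromosome 3, 179017223 to 179072279, minus strand), was at 3.76, 2.86 and 2.86 FPKM in the same order. Its 2 shUSP16 values were nearly equal and both under the control, with ratios of 0.760 and 0.761 and a log2 difference of -0.30 (SE 0.14, adjusted p = 0.390).

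The other 3 genes of that role stayed near the control. PPM1D, a phosphatase that switches off p53 signalling, was at 5.68, 5.33 and 5.80 FPKM. TRIAP1, an inhibitor of apoptosis, was at 13.8, 12.1 and 14.4 FPKM, with ratios of 0.876 (0.779 to 0.984) and 1.04 (0.934 to 1.17). In both genes the control lay between the 2 libraries labelled shUSP16. CCNG1, cyclin G1, which recruits a phosphatase to MDM2, was at 41.0, 42.1 and 45.8 FPKM. Its ratio was 1.02 (0.981 to 1.07) in shUSP16-1 and 1.12 (1.07 to 1.17) in shUSP16-2. The log2 difference of CCNG1 was 0.10 and became -0.01 with equal totals of reads.

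Of the 4 genes for cell cycle arrest and stress kinases, 3 were lower and 1 was higher. GADD45A, a growth arrest gene that acts on mitotic kinase and stress kinase pathways (ENSG00000116717, chromosome 1, 67685061 to 67688338, plus strand), stood at 22.8 FPKM in the control library, 15.1 in shUSP16-1 and 17.0 in shUSP16-2. The control was above both, with ratios of 0.661 (0.608 to 0.717) and 0.745 (0.689 to 0.806). The limma log2 difference was -0.49 (SE 0.13, adjusted p = 0.291), and 5.64% of genes tested were as low or lower.

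BTG2, an antiproliferative regulator of mRNA decay (ENSG00000159388, chromosome 1, 203305491 to 203309602, plus strand), was at 4.95, 3.63 and 3.32 FPKM. The shUSP16 values lay close together under the control, with a log2 difference of -0.41 (SE 0.14, adjusted p = 0.314). PLK2, a polo-like kinase of centriole duplication and stress responses (ENSG00000145632, chromosome 5, 58453982 to 58460260, minus strand), was at 34.5, 30.7 and 29.6 FPKM. This was a small shift, with ratios of 0.889 and 0.857 (adjusted p = 0.476). PLK3, a related stress-induced kinase (ENSG00000173846, chromosome 1, 44800225 to 44805990, plus strand), was at 1.55, 2.14 and 2.23 FPKM. It went the other way from its relative, with ratios of 1.37 (1.12 to 1.68) and 1.43 (1.17 to 1.75) from 176, 222 and 240 reads and a log2 difference of 0.32 (SE 0.17, adjusted p = 0.440).

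Among the tested members the apoptosis genes held the widest limma differences in both directions. AEN, an exonuclease that digests DNA and RNA in dying cells (ENSG00000181026, chromosome 15, 88621296 to 88632282, plus strand), stood at 4.90 FPKM in the control library, 6.81 in shUSP16-1 and 7.85 in shUSP16-2. It was the tested member most above the control, with a log2 difference of 0.50 (SE 0.14, adjusted p = 0.292), as high or higher than which stood 3.43% of genes tested. BAX, which forms pores in the outer mitochondrial membrane (ENSG00000087088, chromosome 19, 48954815 to 48961798, plus strand), was at 15.3, 19.8 and 19.3 FPKM. Its shUSP16 values nearly coincided above the control, with ratios of 1.30 (1.21 to 1.40) and 1.26 (1.17 to 1.36) and a log2 difference of 0.34 (SE 0.12, adjusted p = 0.321).

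EI24, an endoplasmic reticulum protein gene of autophagy and cell death (ENSG00000149547, chromosome 11, 125569216 to 125584687, plus strand), was at 38.8, 46.7 and 50.9 FPKM. Both shUSP16 values exceeded the control, with a log2 difference of 0.32 (SE 0.12, adjusted p = 0.336). PMAIP1, which encodes the BH3-only protein NOXA, was at 27.7, 28.9 and 32.3 FPKM, and only the second ratio, 1.17 (1.10 to 1.24), had an interval above 1. APAF1, the scaffold of the apoptosome, was at 2.90, 2.85 and 2.65 FPKM, with both intervals including 1.

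By the limma difference, BBC3 and TP53INP1 were the lowest of the 26 tested members, and most of the difference was in shUSP16-2. BBC3, which encodes the BH3-only protein PUMA (ENSG00000105327, chromosome 19, 47220822 to 47232766, minus strand), stood at 3.32 FPKM in the control library, 2.32 in shUSP16-1 and 1.29 in shUSP16-2, from 344, 220 and 127 reads. The control was above both, with ratios of 0.697 (0.586 to 0.828) and 0.388 (0.314 to 0.477), and the limma log2 difference was -0.65 (SE 0.26, adjusted p = 0.353). TP53INP1, a stress protein of autophagy and cell death (ENSG00000164938, chromosome 8, 94925972 to 94949411, minus strand), was at 3.25, 2.61 and 1.17 FPKM from 601, 443 and 205 reads. The log2 difference was -0.60 (SE 0.33, adjusted p = 0.437), and it was -0.24 in shUSP16-1 alone and -0.97 in shUSP16-2 alone.

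These 2 genes also differed between the libraries labelled shUSP16, a comparison that leaves out the control. The ratio of shUSP16-2 to shUSP16-1 was 0.556 (0.444 to 0.695) for BBC3 and 0.446 (0.376 to 0.528) for TP53INP1, and only 2.66% and 1.41% of genes tested were as low or lower. USP16 itself went the other way, at 1.39 (1.27 to 1.53). FDXR stood at 0.773 (0.704 to 0.848) and GDF15 at 0.832 (0.752 to 0.921). In all, 12 of the 26 members (46.2%) had an interval without 1 between these 2 libraries, close to the 50.0% of all genes, and with 1 library of each number there is no test of this difference.

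The death receptors stayed near the control. FAS was at 4.43 FPKM in shControl, 4.19 in shUSP16-1 and 4.52 in shUSP16-2, and TNFRSF10B, the TRAIL receptor DR5, at 22.2, 22.7 and 22.1. In both genes the control lay between the other libraries, and all 4 intervals included 1. The TNFRSF10B estimate is the more precise, resting on 3493 to 3722 reads per library, with ratios of 1.02 and 0.995.

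The DNA repair genes were also near the control, with ratios between 0.821 and 1.06. DDB2, which finds ultraviolet damage in chromatin, was the lowest, at 8.20 FPKM in shControl, 7.54 in shUSP16-1 and 6.73 in shUSP16-2, with a log2 difference of -0.18 (adjusted p = 0.558). XPC, which acts beside it in nucleotide excision repair, was at 5.52, 5.28 and 5.86 FPKM. Its other strand holds AC093495.1 over 23.8% of its length, with 121 to 148 reads, and LSM3 over 6.6%, with 1625 to 1894 reads against 757 to 872 for XPC. Without a known strand setting, reads in those stretches cannot be told apart. POLH, the translesion polymerase eta, was at 6.96, 7.38 and 7.37 FPKM. RRM2B, a ribonucleotide reductase subunit that supplies nucleotides for repair, was at 4.11, 4.22 and 4.15 FPKM. POLH, XPC and RRM2B each had intervals including 1 in both libraries.

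In the metabolic group TP53I3, a quinone oxidoreductase, was higher in both libraries. SESN1, a stress-induced inhibitor of mTORC1 signalling, was lower, but not beyond counting error in both. Its ratios were 0.866 (0.748 to 1.0) in shUSP16-1 and 0.905 (0.784 to 1.04) in shUSP16-2. TP53I3 (ENSG00000115129, chromosome 2, 24077433 to 24085861, minus strand) was at 9.89, 11.4 and 11.8 FPKM, with ratios of 1.16 (1.04 to 1.28) and 1.19 (1.08 to 1.32) and a log2 difference of 0.21 (adjusted p = 0.451). SESN1 was at 2.52, 2.18 and 2.28 FPKM (adjusted p = 0.747). FDXR, the mitochondrial ferredoxin reductase, was at 7.18, 9.37 and 7.24 FPKM, so that it stood above the control in shUSP16-1 and level with it in shUSP16-2. TIGAR, a fructose bisphosphatase that lowers glycolysis, was under the minimum level, with 30, 43 and 88 reads. Its ratio was 1.56 (0.957 to 2.58) in shUSP16-1 and 3.08 (2.01 to 4.83) in shUSP16-2. AC008012.1, on the same strand and with 0 reads, covers 42.6% of the TIGAR length. The effect of this overlap on the TIGAR reads was not tested. GDF15, a secreted stress cytokine, was at 13.5, 13.2 and 11.0 FPKM, below the control beyond counting error in shUSP16-2 alone.

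**Figure D3:**
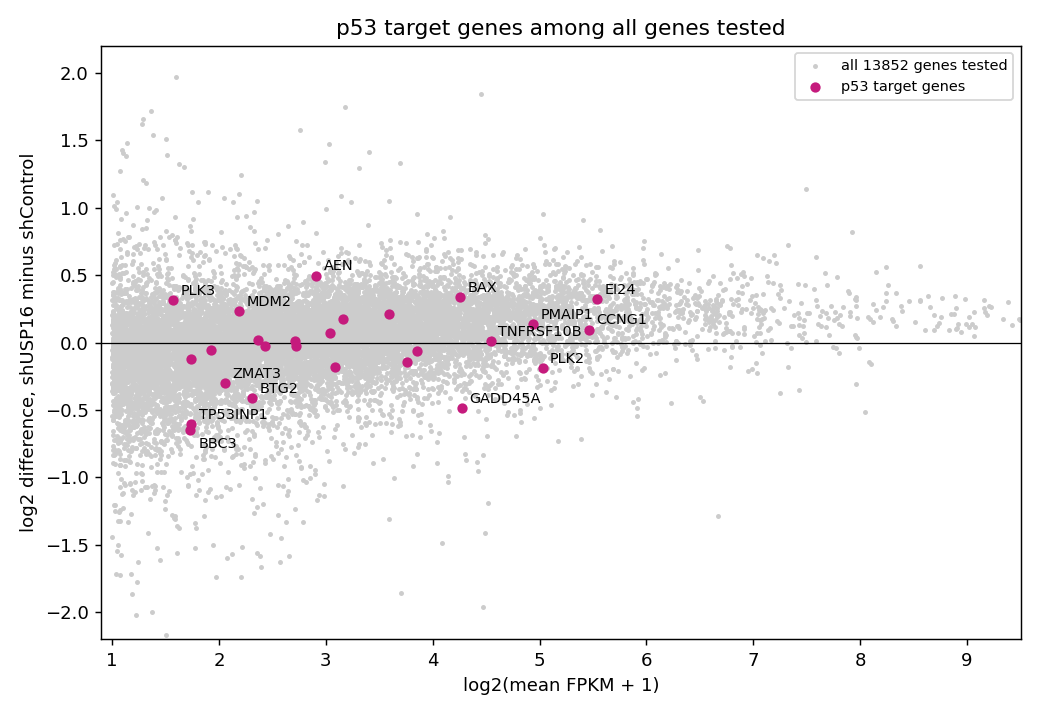
limma log2 difference, shUSP16 minus shControl, against log2(mean FPKM + 1) for the 13852 genes tested (grey) and the 26 p53 targets among them (magenta); 31 genes fall outside the plotted range. The members lie inside the grey cloud on both sides of 0, from -0.65 for BBC3 to 0.50 for AEN.

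Genes that control p53 were read from a wider list, which, like the lists that follow, was chosen with earlier results of these data known. MDM4, a relative of MDM2 that blocks p53, was at 13.6 FPKM in shControl, 13.5 in shUSP16-1 and 13.3 in shUSP16-2. CDKN2A, the locus of p16 and of the MDM2 inhibitor p14ARF, was at 67.8, 60.3 and 58.3 FPKM.

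Of the 22 tested activators and inhibitors of p53, both libraries labelled shUSP16 were above shControl for 15 and below it for 5, beside 44.9% and 32.4% of all genes. With equal totals these counts were 10 and 8, beside 31.3% and 45.4%. limma called 0 of them in either direction, and 4 had an unadjusted p under 0.05, as did 14.5% of all genes. PRKDC, the catalytic subunit of a DNA damage kinase, was highest relative to the control, at 27.8, 38.7 and 44.3 FPKM. It was the only one of the 22 that voom called, higher with both kinds of total (adjusted p = 0.0241 and 0.0275). CHEK1, a checkpoint kinase, was at 7.08, 9.03 and 9.90 FPKM, EP300, an acetyltransferase coactivator of p53, at 8.51, 11.9 and 10.8, and USP7, a deubiquitinase of MDM2 and p53, at 16.4, 20.2 and 20.9.

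Ribosomal proteins that bind MDM2 when ribosome assembly fails were above the control in 4 of 5 cases. This count was the same with equal totals and with median-ratio scaling. At the authors' scaling, equal totals and median-ratio scaling, 44.9%, 31.3% and 37.9% of all genes were above it. RPL5 was at 353, 415 and 436 FPKM (log2 difference 0.27, limma adjusted p = 0.328) and RPL11 at 246, 274 and 287. RPL23 and RPS7 had log2 differences of 0.21 each. limma and voom called 0 of the 5 in either direction. A limma unadjusted p under 0.05 was met by 1 of the 5 and by 14.5% of all genes.

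A second list of 35 p53 targets, outside the 31, also held genes on both sides of the control. Of its 22 tested genes 10 (45.5%) were above the control and 9 (40.9%) below, beside 44.9% and 32.4% of all genes. Their median log2 difference was 0.04. With equal totals 6 (27.3%) were above and 11 (50.0%) below, beside 31.3% and 45.4% of all genes. limma and voom called 0 of them, with 1 at an unadjusted p under 0.05, a rule met by 14.5% of all genes. CDKN1A, which encodes the cell cycle inhibitor p21, was at 7.79 FPKM in shControl, 7.29 in shUSP16-1 and 6.34 in shUSP16-2. Its log2 difference was -0.17 (limma adjusted p = 0.588). The genes of this list farthest from the control, by the smaller of their 2 differences, were NOTCH1 (log2 difference 0.33), CMBL (0.30), DUSP14 (0.37) and TGFA (-0.32).

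Of 8 RNA genes that respond to p53, 4 had enough signal to test. NEAT1, the RNA scaffold of paraspeckles, was at 55.4 FPKM in shControl, 38.2 in shUSP16-1 and 29.1 in shUSP16-2. Its log2 difference was -0.71, not called by limma (adjusted p = 0.280) but called lower by voom with both kinds of total (adjusted p = 0.0107 and 0.000225). PVT1 had a log2 difference of 0.29, and PURPL, at 18.8, 19.2 and 11.8 FPKM, was low in shUSP16-2 alone. TP53TG1 had the control between the other libraries.

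Cell cycle genes that p53 represses through p21 and the DREAM complex were above the control in both libraries for 15 of 20 and below it for 2, beside 44.9% and 32.4% of all genes. With equal totals 9 were above and 3 below, beside 31.3% and 45.4% of all genes. With median-ratio scaling 9 (45.0%) were above and 2 (10.0%) below, beside 37.9% and 38.5% of all genes. BIRC5, encoding survivin, had a log2 difference of 0.36, MYBL2 0.33, E2F1 0.33 and FOXM1 0.33, the last 3 encoding transcription factors of the cell cycle. limma and voom called 0 of the 20, with 3 at an unadjusted p under 0.05, a rule met by 14.5% of all genes.

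Stress genes that share regulators with some members were mostly below the control. Of 14 tested immediate early genes, which growth factors and handling induce within minutes, 13 (92.9%) were below the control in both libraries under each of the 3 scalings. At the authors' scaling, equal totals and median-ratio scaling, 32.4%, 45.4% and 38.5% of all genes were below it. The median log2 difference of the 14 was -0.59. JUN was at 166, 65.0 and 70.1 FPKM, EGR3 at 9.57, 2.85 and 4.26, NR4A1 at 17.7, 7.89 and 8.72 and DUSP1 at 26.8, 14.6 and 14.9. limma called 0 of the 14, with 11 at an unadjusted p under 0.05, a rule met by 14.5% of all genes. Voom called 6 lower with the authors' totals and 11 lower with sums of reads, beside 1.04% and 3.02% of all genes. It called 0 of the 14 higher with either. Among the members induced by the same signals, GADD45A, BTG2 and PLK2 were below the control and PLK3 above it. Whether immediate early induction moved these 4 genes was not tested.

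Of 10 integrated stress response genes 5 were below the control in both libraries and 2 above, beside 32.4% and 44.9% of all genes. ATF4 was at 270, 346 and 351 FPKM, while DDIT3 (29.8, 15.8 and 15.5), ATF3 (25.8, 11.3 and 12.9) and PPP1R15A (14.2, 9.58 and 9.94) were lower. limma called 0 of the 10, with 5 at an unadjusted p under 0.05, a rule met by 14.5% of all genes. Voom with the authors' totals called DDIT3 and ATF3 lower (adjusted p = 0.00692 and 0.000315) and 0 higher, beside 1.04% of all genes lower. With sums of reads it called 4 lower, adding PPP1R15A and ASNS (adjusted p = 0.0172 and 0.0475), beside 3.02% of all genes. The members that ATF4 also drives had small differences in either direction, with log2 values of 0.14 for PMAIP1, 0.01 for TNFRSF10B and -0.14 for GDF15.

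**Figure D4:**
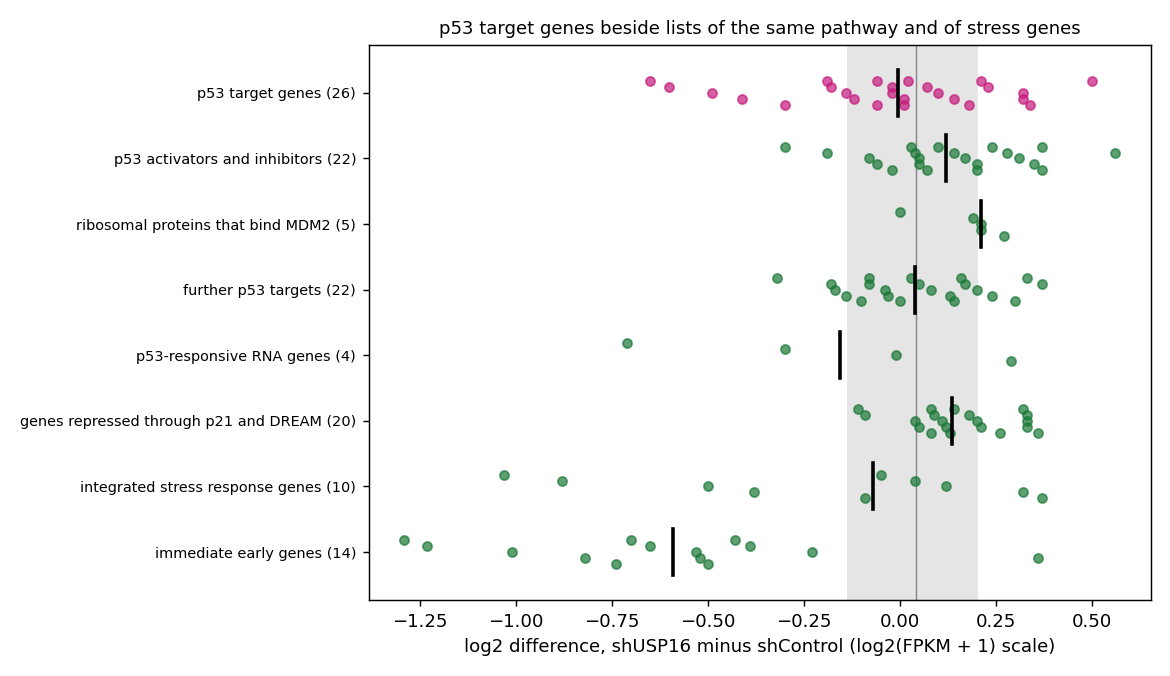
limma log2 difference, shUSP16 minus shControl, for each tested gene of the 31 p53 targets (magenta) and of the other lists (green), with the number tested in brackets; black bars are list medians, the grey band spans the quartiles of all genes tested (-0.14 to 0.20) and the grey line their median (0.04). The p53 targets centre on -0.01 with members on both sides, while 13 of the 14 immediate early genes lie left of 0.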

How the data were processed

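RNA-seq of 1 shControl and 2 shUSP16 libraries was grouped by title. The authors deposited 1 table of FPKM values, per the file headers, beside each gene's coordinates, length and biotype. Aligner, counter and strand setting were not given in the sources used here. Mouse builds (GRCm38, mm10) stand in the submitters' processing notes, yet all 58735 gene IDs, coordinates and merged exon lengths equal those of human GENCODE 29 on GRCh38. FPKM times length was a whole multiple of 1 step per library for 100% of values above 0 (tolerance 0.01 reads), which gave whole reads. Against the sums of reads, the authors' implied totals stood at 1.08, 1.01 and 0.994 in shControl, shUSP16-1 and shUSP16-2.

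After genes averaging under 1 FPKM were left out, log2(FPKM + 1) of the other 13852 was fitted with limma 3.58.1 (R 4.3.3) with a mean trend. The control is alone in its group, so the spread came from the 2 shUSP16 libraries (prior of 4.05 degrees of freedom). An exact permutation test over 3 libraries cannot reach p = 0.05. A fold change on this scale understates low genes. The script was tested on simulated data with the scatter of the 2 shUSP16 libraries and 200 changed genes. There limma called 22.5% of genes set 2-fold higher and 12.1% of those set 2-fold lower, and voom 8.5% and 6.3%. The mean number of false calls was 14.5 for limma and 19 for voom. A member that was not called is therefore not shown to be unchanged, and a voom call can be false. Ratio intervals are exact binomial 95% intervals of recovered reads at the authors' scaling. The 4 alternatives to the fit or its scaling that matter most are voom with either kind of total, equal totals and median-ratio scaling. Members and lists were chosen with earlier results of these data known. Values in every library are given for the 6 members farthest from shControl in each direction by the smaller of their 2 differences and the 6 most abundant. Other members are given by role, and other lists by counts and their 4 leading genes. MDM4, CDKN2A and CDKN1A were added for their place in the pathway. Where 2 gene IDs share a symbol (SCO2 and LINC-PINT), the more abundant was used. Tables and figures came from Python 3.11.15 with scipy 1.17.1, pandas 2.3.3 and matplotlib 3.10.9.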

Additional observations from a re-analysis of the deposited data

How the results depend on the processing

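No paired analysis was possible because the shControl library carries no replicate number and the groups share fewer than 2 numbers. With 1 control library no setting checks the spread of the control. Of all genes tested limma called 0, against 13 (3 higher, 10 lower) with a mean of at least 5 FPKM, 48 (17 and 31) among protein-coding genes, 348 (204 and 144) by voom with the authors' totals and 557 (139 and 418) by voom with sums of reads. Members called stayed at 0 except under that last setting, which called 3. Members past 1.5-fold in both libraries were 0 higher and 0 lower, against 1 and 2 with no filter on low values. With equal totals or sums of reads they were 0 and 1. The share of all genes is not given here for these alternatives. At a ratio of 5 to 4 there were 3 higher and 4 lower (11.5% and 15.4%), beside 9.46% and 10.2% of all genes. Leaving out 1 library labelled shUSP16 gave 0 to 1 higher and 1 to 2 lower. The 11 members above and 10 below shControl became 6 and 17 with equal totals or sums of reads. Median-ratio scaling gave 8 above and 14 below. With a mean of at least 5 FPKM, which keeps 16 members, 8 were above and 4 below, and the share of all genes at that level is not given here. The members' median was 0.043 there, -0.101 with equal totals, -0.052 with median-ratio scaling and -0.115 by voom with sums of reads, while the median of all genes was 0.109, -0.049, -0.003 and -0.059. Among the genes followed across settings, 8 members within 0.10 of 0 on the log2 scale and PURPL and TP53TG1 changed sign. With equal totals, CCNG1 was at -0.010, POLH at -0.020, RRM2B at -0.068, TNFRSF10B at -0.091 and XPC at -0.081. By voom with sums of reads they were at -0.010, -0.023, -0.085, -0.095 and -0.094. With median-ratio scaling RRM2B was at -0.024, TNFRSF10B at -0.039 and XPC at -0.035. Leaving out shUSP16-1 or shUSP16-2 in turn gave 0.027 or -0.076 for PPM1D, 0.058 or -0.178 for TRIAP1, 0.222 or -0.234 for TP53TG1, -0.006 or 0.031 for TNFRSF10B, 0.074 or -0.054 for XPC and -0.632 or 0.034 for PURPL. FAS was at 0.023 without shUSP16-1. The cause of these shifts beyond scaling and fewer genes or libraries was not tested. TIGAR, PHLDA3, TRIM22 and TNFRSF10C had 88 reads or fewer per library. Each also shares exon sequence with another gene on the same strand. Whether depth alone limits their counts was not tested.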
